A study of Homo sapiens with 9 samples.

Results

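Genes of the actin cytoskeleton and its neighbours, TAGLN, ACTA2, CNN1, TPM1, TPM2, MYL9, ACTN1, VCL, CALD1 and VIM, were followed through an RNA sequencing experiment in MCF10A, an established non-tumorigenic line of human breast epithelial cells. They were taken by symbol from a table of 56609 gene symbols, in which each of the 10 had 1 entry. They were named as a list, not by a threshold on measured values, but with earlier results of these data known. Counts of them set beside all genes are therefore descriptive. Expression was given as TPM (transcripts scaled to a common total), which divides the reads of a gene by its transcript length and gives every sample the same sum, so that levels can be compared between genes. Of the 10 genes, 9 averaged at least 1 TPM over all samples and were tested, as were 13968 symbols in all. The exception was CNN1. All 10 are annotated as protein-coding, and their positions below are those of GENCODE 29 on hg38.

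The 3 groups of 3 samples each were compared. The TGFb3 group had been given 10 nM transforming growth factor beta 3 for 16 h. The high calcium group had been given 10 mM calcium plus ionomycin, an ionophore that lets calcium cross membranes, labelled as 1 mM, for 16 h, so calcium and ionophore cannot be told apart. Control cells were untreated, and all 3 groups came from the same line, grown with horse serum, EGF, hydrocortisone, cholera toxin and insulin. The labels number the replicates but do not say that these were separate cultures, and p-values therefore cover sample-to-sample spread that may be of technical origin.

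Contraction of non-muscle cells is driven by myosin II, a motor that pulls on actin filaments once its light chains are phosphorylated. Tropomyosins, caldesmon, calponin and transgelin lie along the filament and set which proteins can reach it, alpha-actinin ties filaments into bundles, and vinculin couples the bundles to sites of adhesion. Several of these genes are known in muscle and fibroblasts as targets of serum response factor, which binds a sequence called the CArG box together with cofactors that are released when actin polymerizes, and TGF-beta is known to raise many of them in fibroblasts and epithelial cells.

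Facts of the whole table bear on how the values are read. The genome of the mitochondrion took 22.7% ± 0.588 of all TPM in TGFb3 samples, 11.5% ± 0.371 in high calcium samples and 22.7% ± 0.914 in control samples (SD, n = 3 each). MALAT1, a nuclear non-coding RNA, stood at 204 ± 12.4 TPM in TGFb3 samples, 424 ± 32.2 TPM in high calcium samples and 158 ± 44.7 TPM in control samples (SD, n = 3 each). Over all tested genes the log2 difference had a median of -0.06 for TGFb3 against control and 0.22 for high calcium against control. All 10 epithelial marker genes averaged at least 1 TPM, as did 1 of 10 smooth muscle markers, 4 of 10 fibroblast markers and 2 of 8 endothelial and blood cell markers. The depth of the libraries cannot be read from TPM.

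Promoter windows are shown for 3 genes. ACTN1 had the only full CArG box in the windows found and ACTA2 had near matches alone. TPM1, the gene that rose most with TGFb3, had neither in its 1 window. RefSeq windows for GRCh38.p14, reaching from 250 bases before to 50 bases after an annotated start, were found for 8 of the 10 genes, 16 windows in all. TAGLN and MYL9 had no window and were not searched. Capitals mark each match to the CArG box on either strand with at most 1 letter off. The windows are ACTA2 at chr10:88952724-88953023 on the minus strand, ACTN1 at chr14:68977517-68977816 on the minus strand and TPM1 at chr15:63048239-63048538 on the plus strand. All 3 lie inside the annotated span of their genes. For TPM1 no other window was found, so its annotated start at chr15:63042632 was not searched.
ACTA2: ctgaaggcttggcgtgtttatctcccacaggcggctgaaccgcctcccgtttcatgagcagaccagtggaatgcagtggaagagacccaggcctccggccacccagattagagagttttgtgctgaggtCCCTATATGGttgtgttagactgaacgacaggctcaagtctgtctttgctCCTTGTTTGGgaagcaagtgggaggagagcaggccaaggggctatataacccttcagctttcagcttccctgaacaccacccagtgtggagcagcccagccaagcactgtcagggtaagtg
ACTN1: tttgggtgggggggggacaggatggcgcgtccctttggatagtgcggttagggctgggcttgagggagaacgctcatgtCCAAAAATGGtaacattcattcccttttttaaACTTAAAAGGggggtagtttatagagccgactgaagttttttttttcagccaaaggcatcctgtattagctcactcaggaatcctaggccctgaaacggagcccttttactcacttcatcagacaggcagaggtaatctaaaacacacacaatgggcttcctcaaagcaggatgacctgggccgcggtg
TPM1: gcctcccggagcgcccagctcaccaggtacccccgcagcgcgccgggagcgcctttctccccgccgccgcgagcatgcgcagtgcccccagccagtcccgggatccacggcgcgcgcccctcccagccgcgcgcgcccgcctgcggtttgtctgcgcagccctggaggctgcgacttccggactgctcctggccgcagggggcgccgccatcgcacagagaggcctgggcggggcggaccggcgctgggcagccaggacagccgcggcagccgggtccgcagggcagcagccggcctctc

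The ACTA2 window held matches that were each 1 letter off, beginning at -121 and -71 from the start. The ACTN1 window held a full CArG box at -171 and a match 1 letter off at -139, and the TPM1 window held none. A full CArG box was present in 1 of the 16 windows, against 1.29% of all 35116 windows of that length, and a match with at most 1 letter off was present in 5 of the 16, against 18.9%. The genes with such a match were ACTA2, ACTN1, CALD1 and VIM. CATTCC, the core of the element bound by TEAD factors, was present in 5 of the 16 windows, against 14% of all windows. CAGAC, a SMAD-binding motif, was present in 12 of 16 windows, against 45.3%, the palindrome GTCTAGAC in 0 of 16, against 0.202%, and TGANTCA, the AP-1 motif, in 1 of 16, against 7.71%. All were searched on both strands, and none of these motifs contains another. ACTN1 and CALD1 supplied 4 windows each and the 2 TPM2 windows overlap, so the 16 windows are not independent units. Counted by gene, CAGAC was present in a window of 6 of the 8. The 45.3% is a share of windows, so it cannot be set beside this count by gene. A match is a description of letters, and windows at other starts of the same gene can differ.

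TGFb3 against control asked how the 10 genes stood in cells given the growth factor. Of the 9 tested genes, 8 rose and 0 fell, where 26.5% of all tested genes rose, 33.1% fell and 59.6% were called either way. TPM1 and MYL9 showed the largest differences of the 10 genes, and ACTA2 was the tested gene that was not called. The 10 genes together took 4194 ± 84.6 TPM in TGFb3 samples, 1368 ± 20.9 TPM in high calcium samples and 1382 ± 26.8 TPM in control samples (SD, n = 3 each). Samples did not overlap for 8 of the 9 tested genes, against 63.8% of all tested genes. The median log2 difference of the 9 was 1.25, beside -0.06 for all genes.

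**Figure D1:**
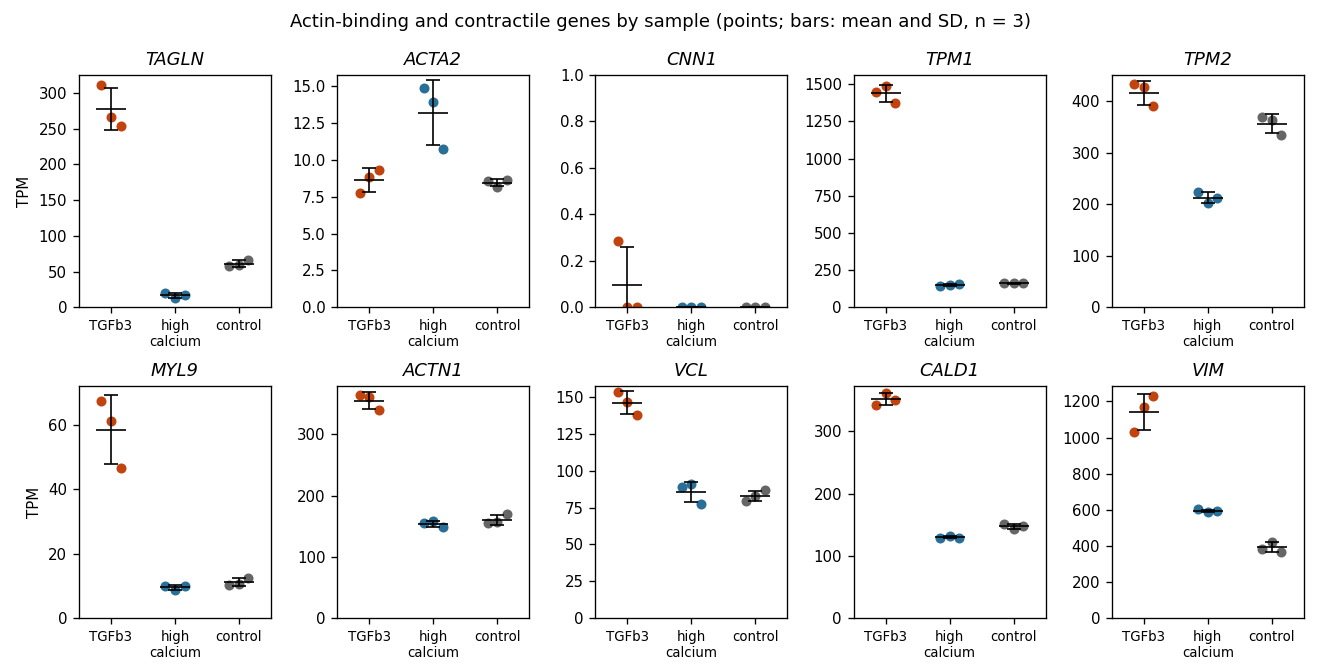
Levels of the 10 genes in each sample, in TPM on a linear axis that starts at 0, with TGFb3, high calcium and control samples from left to right. Points are samples and bars give the mean and SD of 3 samples. TPM1 lies between 1375 and 1489 TPM in TGFb3 samples and between 147 and 163 TPM in the other samples.

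Transgelin, calponin and caldesmon bind along actin filaments. TAGLN (chr11:117199321-117204782, plus strand), which encodes transgelin, a stabilizer of actin bundles and an early marker of smooth muscle, had 310.2, 266 and 254 TPM in TGFb3 samples, 19.9, 13.3 and 17.5 TPM in high calcium samples, and 57.8, 59.8 and 66.4 TPM in control samples. The 3 groups did not overlap, with TGFb3 samples highest and high calcium samples lowest. TAGLN rose by 2.15 ± 0.13 on the log2(TPM + 1) scale with TGFb3 (SE, adjusted p = 3.4e-07) and fell by 1.81 ± 0.13 with high calcium (SE, adjusted p = 1.1e-06), so that the treatments lay 3.97 ± 0.13 apart (SE, adjusted p = 4.6e-09). TAGLN, CALD1 and TPM2 were the tested genes that rose with TGFb3 and fell with high calcium. Its paralog TAGLN2 rose by 1.26 ± 0.055 with TGFb3 (SE, adjusted p = 4.6e-08) and was not called with high calcium (0.03, 95% interval -0.09 to 0.16). TAGLN made up 24.6% ± 1.14 of the TPM of both transgelins in TGFb3 samples, 4.46% ± 0.865 in high calcium samples and 14.8% ± 0.265 in control samples (SD, n = 3 each). PCSK7 overlaps TAGLN on the opposite strand and averaged 19.2 TPM in TGFb3 samples, 15.3 TPM in high calcium samples and 14.4 TPM in control samples, and whether reads were counted by strand is not given in the sources used here.

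CALD1 (chr7:134744252-134970728, plus strand) encodes caldesmon, which links actin, myosin and tropomyosin and restrains myosin. It had 342, 362 and 349.5 TPM in TGFb3 samples, 129, 132 and 129 TPM in high calcium samples and 152, 143 and 148 TPM in control samples. The groups did not overlap, and high calcium samples were lowest by a small margin. CALD1 rose by 1.25 ± 0.037 with TGFb3 (SE, adjusted p = 4.2e-09) and fell by 0.18 ± 0.037 with high calcium (SE, adjusted p = 0.00175). CNN1 (chr19:11538717-11550323, plus strand), which encodes calponin 1 of smooth muscle, was listed at 0.288 TPM in TGFb3 sample 1 and at 0 in the other 8 samples. The calponins that were expressed were CNN2 and CNN3, forms found outside smooth muscle. CNN2 rose by 0.68 ± 0.093 with TGFb3 (SE, adjusted p = 1.3e-04), and CNN3 rose by 0.50 ± 0.034 with TGFb3 (SE, adjusted p = 9.1e-07) and by 0.86 ± 0.034 with high calcium (SE, adjusted p = 2.1e-08).

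TPM1 (chr15:63042632-63071915, plus strand) and TPM2 (chr9:35681992-35690121, minus strand) encode tropomyosins, coiled coils that polymerize along the filament, whose high molecular weight products occur on stress fibres. TPM1 had 1450.4, 1489 and 1375 TPM in TGFb3 samples, 147, 151 and 156 TPM in high calcium samples, and 163, 161 and 161 TPM in control samples. The lowest TGFb3 sample stood far above every other sample, while high calcium and control samples lay close together without overlapping. Mean TPM of TPM1 was 8.90 times as high in TGFb3 samples as in control samples, a rise of 3.15 ± 0.039 on the log2 scale (SE, adjusted p = 1.1e-11), and its rank by mean TPM among 13968 genes was 82 in TGFb3 samples, against 840 in control samples. The difference of high calcium from control was -0.10 ± 0.039 (SE, adjusted p = 0.0544). TPM2 had 433, 427 and 390.5 TPM in TGFb3 samples, 225, 203 and 212 TPM in high calcium samples, and 369, 364 and 335 TPM in control samples. Again the groups did not overlap, but here high calcium samples stood well below control samples. TPM2 rose by 0.23 ± 0.057 with TGFb3 (SE, adjusted p = 0.00614) and fell by 0.74 ± 0.057 with high calcium (SE, adjusted p = 2e-06).

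The other tropomyosin genes, TPM3 and TPM4, are expressed in most cells. TPM4 rose by 1.19 ± 0.077 with TGFb3 (SE, adjusted p = 6.1e-07) and by 0.40 ± 0.077 with high calcium (SE, adjusted p = 0.0012), whereas TPM3 was not called with TGFb3 (0.11, 95% interval -0.14 to 0.35) and fell by 0.50 ± 0.11 with high calcium (SE, adjusted p = 0.00297). After median ratio rescaling 0 of the 4 tropomyosins were called higher with high calcium and 3 lower, so the rise of TPM4 was not kept. TPM1 made up 39.3% ± 1.74 of the TPM of the 4 tropomyosins in TGFb3 samples, 10.3% ± 0.600 in high calcium samples and 9.70% ± 0.273 in control samples (SD, n = 3 each). TPM2 made up 11.4% ± 0.785 of it in TGFb3 samples, 14.5% ± 0.348 in high calcium samples and 21.4% ± 0.620 in control samples (SD, n = 3 each). The shares of TPM1 in TGFb3 and control samples did not overlap (two-sided exact permutation test, p = 0.1, which is the lowest value this group size permits; 0.114 after Benjamini-Hochberg adjustment over 24 such tests). In all, the 4 genes summed to 3664 ± 110 TPM in TGFb3 samples, 1470.3 ± 49.98 TPM in high calcium samples and 1666 ± 53.4 TPM in control samples (SD, n = 3 each). Tropomyosin genes are similar in sequence, and reads shared between them may have been split by the counting.

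**Figure D2:**
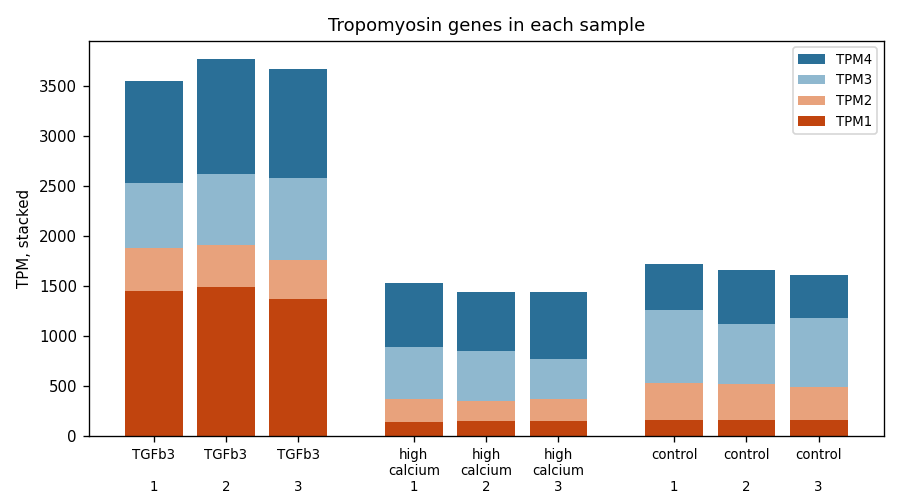
TPM of the 4 tropomyosin genes stacked for each of the 9 samples (vertical axis, TPM, starting at 0), with TGFb3 samples at the left, high calcium samples in the middle and control samples at the right. TPM1 makes up 39.3% of the stack on average in TGFb3 samples and 9.70% in control samples.

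ACTA2 (chr10:88935074-88991339, minus strand) encodes smooth muscle alpha-actin, the isoform used as a marker of myofibroblasts. It had 7.72, 8.81 and 9.30 TPM in TGFb3 samples, 14.9, 13.9 and 10.7 TPM in high calcium samples, and 8.55, 8.15 and 8.64 TPM in control samples. TGFb3 and control samples overlapped, and the high calcium samples were all higher than the rest. The difference for TGFb3 was 0.02 ± 0.12 (SE, adjusted p = 0.887, 95% interval -0.24 to 0.28). ACTA2 rose by 0.57 ± 0.12 with high calcium (SE, adjusted p = 0.00173), and after quantile normalisation of the samples the difference was 0.27 (adjusted p = 0.077). The actins that every cell uses were far above it, ACTB at 6524 to 6945 TPM in TGFb3 samples, 4201 to 4306 TPM in high calcium samples and 3236 to 3729 TPM in control samples. ACTB rose by 0.94 ± 0.057 (SE, adjusted p = 3.7e-07) and ACTG1 by 0.96 ± 0.051 (SE, adjusted p = 1.6e-07) with TGFb3. With high calcium ACTB rose by 0.29 ± 0.057 (SE, adjusted p = 0.00134) and ACTG1 by 0.72 ± 0.051 (SE, adjusted p = 1e-06). After median ratio rescaling 2 of the 3 tested actins were called higher with high calcium. ACTA2 made up 0.0942% ± 0.00958 of the TPM of the 6 actins in TGFb3 samples, 0.207% ± 0.0327 in high calcium samples and 0.178% ± 0.0125 in control samples (SD, n = 3 each). Because actin genes are near-identical in their coding sequence, and FAS and STAMBPL1 overlap ACTA2 on the opposite strand, its low level is uncertain. FAS averaged 46.5 TPM in TGFb3 samples, 44.4 TPM in high calcium samples and 60.4 TPM in control samples.

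MYL9 (chr20:36541484-36551447, plus strand) encodes a regulatory light chain of myosin II, the subunit whose phosphorylation starts contraction. It had 67.4, 61.2 and 46.6 TPM in TGFb3 samples, 9.83, 8.77 and 9.98 TPM in high calcium samples, and 10.4, 10.6 and 12.5 TPM in control samples. TGFb3 samples were all above the other 6, and high calcium samples were all below control samples by a small margin. MYL9 rose by 2.28 ± 0.13 with TGFb3 (SE, adjusted p = 2.2e-07), and the difference for high calcium was -0.20 ± 0.13 (SE, adjusted p = 0.187, 95% interval -0.49 to 0.08). Its paralogs MYL12A and MYL12B were more abundant. MYL9 made up 3.48% ± 0.539 of the TPM of these 3 light chains in TGFb3 samples, 0.665% ± 0.0333 in high calcium samples and 0.874% ± 0.125 in control samples (SD, n = 3 each). Of the 7 tested myosin II genes, 5 rose with TGFb3 and 1 fell, with a median log2 difference of 0.37, where 26.5% of all tested genes rose and 33.1% fell. Those that rose included MYH9, the heavy chain of non-muscle myosin IIA, by 0.87 ± 0.071 (SE, adjusted p = 3.1e-06), and MYL6, an essential light chain, by 0.77 ± 0.053 (SE, adjusted p = 8.3e-07). MYH10, the heavy chain of myosin IIB, fell by 0.28 ± 0.043 with TGFb3 (SE, adjusted p = 2.5e-04) and by 0.18 ± 0.043 with high calcium (SE, adjusted p = 0.00472). With high calcium 4 of the 7 rose, including MYL6 by 0.26 and MYH9 by 0.24, and 1 fell, where 46.1% of all tested genes rose and 17% fell. After median ratio rescaling 0 were higher and 3 lower with high calcium.

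ACTN1 and VCL belong to the bundles and their anchors. ACTN1 (chr14:68874143-68979440, minus strand), which encodes alpha-actinin 1, had 365, 360.1 and 339 TPM in TGFb3 samples, 155, 158 and 148 TPM in high calcium samples, and 155, 157 and 169 TPM in control samples. VCL (chr10:73995193-74121363, plus strand), which encodes vinculin, had 154, 147 and 138 TPM in TGFb3 samples, 88.7, 90.7 and 77.7 TPM in high calcium samples, and 79.3, 82.7 and 86.7 TPM in control samples. For both genes TGFb3 samples were above all others and high calcium samples overlapped with control samples. AP3M1 overlaps VCL on the opposite strand. It averaged 47.5 TPM in TGFb3 samples, 47.3 TPM in high calcium samples and 55.7 TPM in control samples, and its part in the VCL values was not tested. ACTN1 rose by 1.14 ± 0.047 (SE, adjusted p = 3.6e-08) and VCL by 0.81 ± 0.065 (SE, adjusted p = 2.8e-06) with TGFb3. With high calcium the difference was -0.06 ± 0.047 for ACTN1 (SE, adjusted p = 0.282) and 0.04 ± 0.065 for VCL (SE, adjusted p = 0.573). ACTN4, the other non-muscle alpha-actinin, rose by 0.50 ± 0.052 with TGFb3 (SE, adjusted p = 1.8e-05) and by 0.62 ± 0.052 with high calcium (SE, adjusted p = 3.8e-06). ACTN1 made up 50.9% ± 0.753 of the TPM of both in TGFb3 samples, 29.2% ± 0.695 in high calcium samples and 39.9% ± 0.495 in control samples (SD, n = 3 each).

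VIM (chr10:17228259-17237593, plus strand) encodes vimentin, an intermediate filament protein rather than an actin-binding one, and a common marker of mesenchymal cells. It had 1032, 1169.8 and 1228 TPM in TGFb3 samples, 603, 589.6 and 591 TPM in high calcium samples, and 384, 424 and 369 TPM in control samples. The 3 groups did not overlap, and both treatments were above control. VIM rose by 1.54 ± 0.068 with TGFb3 (SE, adjusted p = 5.1e-08) and by 0.60 ± 0.068 with high calcium (SE, adjusted p = 3.2e-05). The antisense gene VIM-AS1 averaged 3.13 TPM in TGFb3 samples, 7.41 TPM in high calcium samples and 2.75 TPM in control samples.

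**Figure D3:**
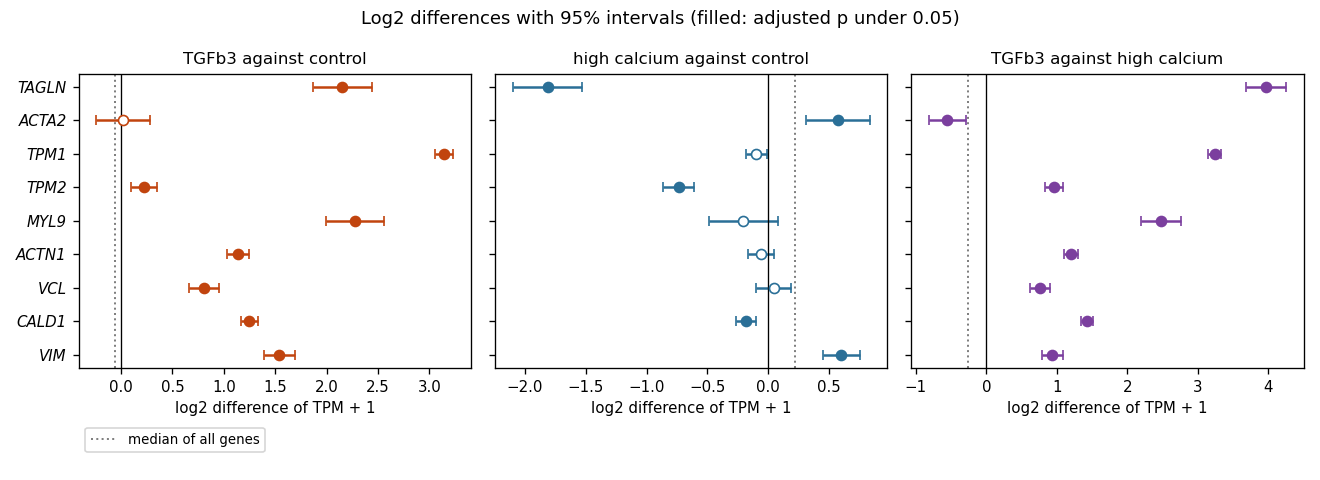
Log2 differences of TPM + 1 for the 9 tested genes (rows) in TGFb3 against control, high calcium against control and TGFb3 against high calcium, with 95% intervals. Filled points have an adjusted p under 0.05 and the dotted line is the median of all tested genes. TAGLN lies at 2.15, -1.81 and 3.97 in the 3 panels.

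High calcium against control used the same control samples, so the 2 comparisons are not independent. VIM and ACTA2 rose and TAGLN, TPM2 and CALD1 fell, that is 2 of 9 higher, where 46.1% of all tested genes rose, and 3 of 9 lower, where 17% fell. Calls in either direction numbered 5 of 9, against 63.1% of all tested genes. TPM1, MYL9, ACTN1 and VCL were not called. Samples did not overlap for 7 of the 9, against 69% of all tested genes. Of all calls, 73% were higher as deposited and 48.8% after median ratio rescaling of the samples, which brought the median of all genes to -0.0074. After that rescaling VIM and ACTA2 were called higher and the other 7 genes lower, with VCL at -0.21 (adjusted p = 0.0126) against 0.04 as deposited. The mitochondrial share of TPM was lower and MALAT1 higher in these samples (11.5% and 424 TPM, against 22.7% and 158 TPM in control), and their part in the result was not tested. With the mitochondrial genes left out, 2 genes were called higher and 6 lower.

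**Figure D4:**
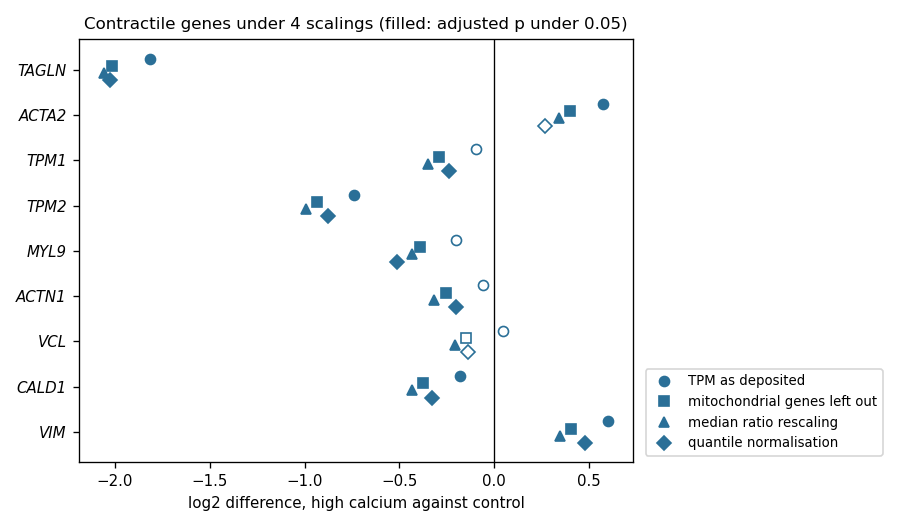
Log2 difference of high calcium from control for the 9 tested genes under 4 scalings (marker shapes), with filled markers for an adjusted p under 0.05. TAGLN and TPM2 are left of 0 under all 4 scalings and VIM is right of 0, while VCL lies at 0.04 as deposited and at -0.21 after median ratio rescaling.

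TGFb3 against high calcium set the treatments against each other without the control samples' values in the difference. Of the 9 tested genes, 8 were higher in TGFb3 samples and ACTA2 was lower, where 16.2% of all tested genes were higher, 50.4% lower and 66.5% called either way. Samples did not overlap for 9 of the 9, against 71.2% of all tested genes. TAGLN differed most, by 3.97 ± 0.13, followed by TPM1 at 3.24 ± 0.039 (SE, adjusted p = 7.1e-12) and MYL9 at 2.48 ± 0.13 (SE, adjusted p = 1.1e-07). The smallest positive difference was that of VCL, 0.76 ± 0.065 (SE, adjusted p = 3.9e-06). ACTA2 differed by -0.55 ± 0.12 (SE, adjusted p = 0.00203), and this call was lost after median ratio rescaling (-0.28, adjusted p = 0.0559). Of all calls, 24.3% were higher as deposited and 51.1% after that rescaling.

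The wider actin machinery was described by lists that include some of the 10 genes. These lists too were chosen with earlier results of these data known. Of 36 tested genes of focal adhesions and stress fibres, 30 rose and 2 fell with TGFb3, with a median log2 difference of 0.78, where 26.5% of all tested genes rose and 33.1% fell. Of these 36, 4 genes averaged 1 TPM only through their highest group, and of the other 32 genes 28 rose and 2 fell. Those that rose included SYNPO, an actin-bundling synaptopodin, at 2.35 ± 0.11 (SE, adjusted p = 7.1e-08), and PDLIM7, a PDZ and LIM protein of stress fibres, at 2.19 ± 0.11 (SE, adjusted p = 1e-07). Of the same 36, 27 rose and 4 fell with high calcium (23 and 4 of the 32), where 46.1% of all tested genes rose and 17% fell. TES, which encodes the LIM protein testin of focal adhesions, rose by 0.97 ± 0.047 with high calcium (SE, adjusted p = 8.8e-08). After median ratio rescaling 17 were higher and 8 lower with high calcium.

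Of 16 tested genes of serum response factor, its cofactors and known targets, 11 rose and 0 fell with TGFb3, with a median of 1.03, and 7 rose and 2 fell with high calcium, with a median of 0.10. The genes that rose with TGFb3 include TPM1, MYL9 and TAGLN, which were already counted above. Over all tested genes 26.5% rose and 33.1% fell with TGFb3, and 46.1% rose and 17% fell with high calcium, so the high calcium count was near the share of all genes. After median ratio rescaling 6 were higher and 8 lower with high calcium. CCN2, a matricellular protein also known as connective tissue growth factor, rose by 2.96 ± 0.088 with TGFb3 (SE, adjusted p = 4.2e-09) and by 1.22 ± 0.088 with high calcium (SE, adjusted p = 1.3e-06). SRF itself averaged 13.0 ± 0.804 TPM in TGFb3 samples, 12.8 ± 0.323 TPM in high calcium samples and 13.1 ± 1.77 TPM in control samples (SD, n = 3 each) and was not called. MRTFA, an actin-sensing cofactor of serum response factor, rose by 1.08 ± 0.084 with TGFb3 (SE, adjusted p = 2.1e-06), and MYOCD, the smooth muscle cofactor, was listed at 0 in all samples.

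**Figure D5:**
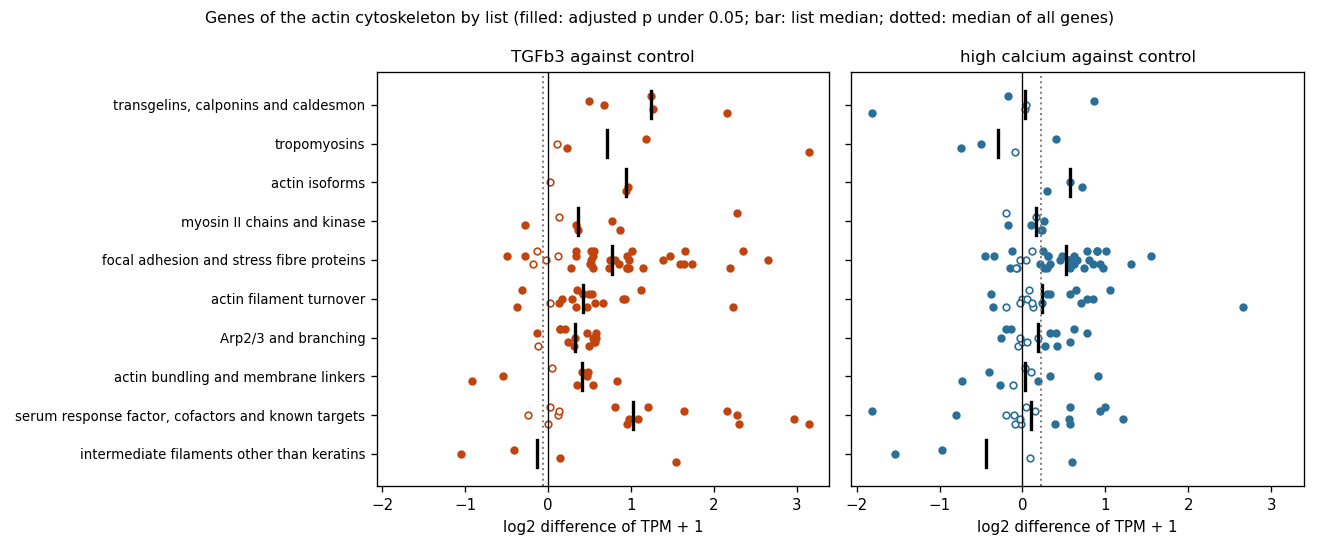
Log2 differences of TPM + 1 for the tested genes of 10 lists of the actin cytoskeleton and intermediate filaments, with TGFb3 against control at the left and high calcium against control at the right. Filled points have an adjusted p under 0.05, black bars are list medians and the dotted line is the median of all genes. The focal adhesion list has a median of 0.78 at the left and 0.52 at the right.

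Markers of other cells were measured beside these genes. The 10 smooth muscle markers summed to 31.6 to 35.3 TPM in TGFb3 samples, 11.1 to 13.1 TPM in high calcium samples and 9.86 to 12.2 TPM in control samples. SMTN, the smoothelin gene, made up most of that sum and rose by 1.57 ± 0.094 with TGFb3 (SE, adjusted p = 3.6e-07), while MYOCD was at 0 and MYH11, the smooth muscle myosin heavy chain, was at most 0.0605 TPM in any sample. The 10 fibroblast markers summed to 350.0 to 354 TPM in TGFb3 samples, 61.2 to 62.9 TPM in high calcium samples and 43.1 to 50.6 TPM in control samples. FAP, a fibroblast activation protease, averaged 319 ± 3.80 TPM of that in TGFb3 samples, 50.9 ± 0.524 TPM in high calcium samples and 43.0 ± 3.77 TPM in control samples (SD, n = 3 each). The 3 tested fibroblast markers other than POSTN rose with TGFb3 and also with high calcium. After median ratio rescaling 2 fibroblast markers were called higher with high calcium. COL1A1, a fibrillar collagen chain, rose by 3.20 ± 0.20 with TGFb3 (SE, adjusted p = 4.3e-07) and by 0.96 ± 0.20 with high calcium (SE, adjusted p = 0.00171). DCN, the proteoglycan decorin, rose by 2.17 ± 0.13 with TGFb3 (SE, adjusted p = 2.9e-07) and by 1.43 ± 0.13 with high calcium (SE, adjusted p = 5.2e-06). POSTN, which encodes periostin, averaged 3.24 ± 0.557 TPM in TGFb3 samples (SD, n = 3) and was listed at 0 in all other samples, so it reached the 1 TPM filter through TGFb3 samples alone. COL1A2 and THY1 were listed at 0 in all samples. The epithelial markers summed to 5075 to 5726 TPM in TGFb3 samples, 7206 to 7444 TPM in high calcium samples and 3766 to 4024 TPM in control samples. KRT17 and KRT5, basal keratins, carried much of that sum, KRT17 at 2453 ± 229 TPM in TGFb3 samples, 3571 ± 134 TPM in high calcium samples and 1285 ± 50.4 TPM in control samples (SD, n = 3 each). Of the 10 epithelial markers 7 rose and 2 fell with TGFb3. The largest rises were those of ITGB4 at 2.20 ± 0.080 (SE, adjusted p = 1.5e-08) and KRT14 at 1.46 ± 0.46 (SE, adjusted p = 0.0185). CDH1 rose by 0.94 ± 0.060 (SE, adjusted p = 5.6e-07) and KRT17 by 0.93 ± 0.067 (SE, adjusted p = 1.2e-06). EPCAM, an epithelial adhesion protein, fell by 1.31 ± 0.050 (SE, adjusted p = 2.2e-08) and KRT18, a simple epithelial keratin, by 0.51 ± 0.057 (SE, adjusted p = 3.2e-05). With high calcium 9 of the 10 epithelial markers rose and 1 fell (8 higher and 1 lower after median ratio rescaling). Of all tested genes, 26.5% rose and 33.1% fell with TGFb3, and 46.1% rose and 17% fell with high calcium. These shares stand beside the fibroblast marker counts as well. The part of these markers in the results was not tested. The endothelial and blood cell markers summed to 10.2 to 15.7 TPM in TGFb3 samples, 20.8 to 44.4 TPM in high calcium samples and 5.57 to 7.51 TPM in control samples, with PTPRC, CD3E, MS4A1 and CDH5 at 0 in all samples. In TGFb3 and high calcium samples most of that sum was CD68, a lysosomal protein abundant in macrophages, which rose by 2.00 ± 0.32 with TGFb3 (SE, adjusted p = 3.8e-04) and by 3.02 ± 0.32 with high calcium (SE, adjusted p = 2.1e-05). KDR, an endothelial growth factor receptor, averaged 3.96 TPM in control samples, above CD68 at 2.04 TPM. KDR fell by 0.87 ± 0.12 with TGFb3 (SE, adjusted p = 9.7e-05) and rose by 0.67 ± 0.12 with high calcium (SE, adjusted p = 6e-04). In bulk RNA, fewer cells of a type and less RNA per cell cannot be told apart.

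Among 8581 other genes averaging at least 10 TPM, the pattern nearest to each gene was sought by the root mean square difference of centred log2 values over the 9 samples. PDPN, which encodes the membrane glycoprotein podoplanin, was nearest to TPM1 (0.0911 log2 units) and averaged 151 ± 6.76 TPM in TGFb3 samples, 15.2 ± 1.88 TPM in high calcium samples and 16.5 ± 0.774 TPM in control samples (SD, n = 3 each). COL4A2, a collagen IV chain of basement membranes, was nearest to MYL9 (0.156), and averaged 236 ± 7.30 TPM in TGFb3 samples, 36.5 ± 2.47 TPM in high calcium samples and 42.1 ± 3.60 TPM in control samples (SD, n = 3 each). DKK1, a secreted Wnt antagonist, was second nearest to TAGLN (0.231) after HYI (0.225). The nearest gene was LGMN for ACTA2, VANGL1 for TPM2, KIAA1161 for ACTN1, TMEM164 for VCL, ANPEP for CALD1 and ZFP36L1 for VIM, at 0.0432 to 0.0799.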

How the data were processed

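Trizol RNA was sequenced as paired ends of 101 bp, per the labels' protocols. The authors deposited 1 table of TPM for 58288 Ensembl gene entries. HISAT2 and hg38 are named per the submitters' processing notes. The quantifier, annotation release and strandedness were not given in the sources used here, and depth cannot be recovered from TPM. Entries sharing a symbol (1932 entries, 253 symbols) were summed. Those averaging 1 TPM or more were tested on log2(TPM + 1) with limma 3.58.1 in R 4.3.3 (trended eBayes, all 9 samples, 2-sided), and called at a Benjamini-Hochberg adjusted p under 0.05 over all 13968. This scale understates changes of low genes. Intervals are 95%. Family shares were compared by exact permutation. The fit was tested on simulated log2 values in which few genes changed, which does not bear on the scaling of samples. Genes named were the 10 members, their paralogs and regulators, up to 4 called genes of each list by size and the 2 genes nearest in pattern. The members and lists were chosen with earlier results of these data known. Another 18 settings were tried, and 1 more was chosen after seeing the data. Annotation was GENCODE 29 and promoter windows were RefSeq's. Some results are not reported here.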

Additional observations from a re-analysis of the deposited data

How the results depend on the processing

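Besides the values reported, 18 other settings and 1 added later were tried. The number of the 9 tested genes called for high calcium against control was 5 as deposited, 9 under median ratio rescaling and 8 without the mitochondrial genes; a median ratio rescaling with factors from the tested genes alone, added after the values of the first one had been seen, also gave 9. VCL in that comparison turned from 0.04 to -0.21 after median ratio rescaling, -0.19 with the added factors, -0.14 after quantile normalisation and -0.15 without mitochondrial genes. The added factors left 50.2% of all calls higher, against 48.8% with the first ones. ACTA2 for TGFb3 against control turned from 0.02 to -0.0052 after quantile normalisation, -0.030 without TGFb3 replicate 3 and -0.00096 without control replicate 2, with a range of -0.030 to 0.090 over the 9 fits that leave out 1 sample. ACTA2 for TGFb3 against high calcium lost its call after either median ratio rescaling (-0.28 and -0.29) and after quantile normalisation (-0.27). The cause was not tested in any of these. TPM1 for high calcium was called under 7 of the 19 settings. Of 513 fitted values over all of them, 487 kept their direction and side of the threshold. Leaving out 1 sample gave 7599 to 8193 called genes for TGFb3 against control, 8121 to 8828 for high calcium against control and 8585 to 9423 for TGFb3 against high calcium, with 8 to 8, 5 to 6 and 9 to 9 of the 9 genes. Same-numbered samples did not deviate together (r of -0.0747 to -0.00372 over 9 pairs). This shows no shared deviation, but it cannot tell whether same-numbered samples were handled as matched sets. A replicate block gave 8044, 8557 and 9118 called genes in the 3 comparisons and 8, 5 and 9 of the 9 genes.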

Other observations

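Actin filament turnover and branching genes were also measured. Over all tested genes 26.5% rose and 33.1% fell with TGFb3, and 46.1% rose and 17% fell with high calcium, and the high calcium counts of the turnover and branching lists lay near those shares. Of 19 tested turnover genes, 16 rose and 2 fell with TGFb3, with a median log2 difference of 0.42, and 10 rose and 2 fell with high calcium, with a median of 0.23 (7 higher and 6 lower after median ratio rescaling). GSN, which encodes the calcium-activated severing protein gelsolin, rose by 2.23 ± 0.18 with TGFb3 (SE, adjusted p = 2.9e-06) and by 2.66 ± 0.18 with high calcium (SE, adjusted p = 8.3e-07). TMSB4X, which encodes the actin monomer-binding thymosin beta 4, rose by 1.12 ± 0.048 with TGFb3 (SE, adjusted p = 4.2e-08) and by 1.06 ± 0.048 with high calcium (SE, adjusted p = 5e-08). Of 15 tested genes of the Arp2/3 complex and filament branching, 13 rose and 1 fell with TGFb3, with a median of 0.33, and 7 rose and 3 fell with high calcium, with a median of 0.19 (4 higher and 7 lower after median ratio rescaling).

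Of 9 tested bundling proteins and membrane linkers, 6 rose and 2 fell with TGFb3, beside 26.5% and 33.1% of all tested genes, and 3 rose and 3 fell with high calcium, beside 46.1% and 17% of all tested genes (1 higher and 6 lower after median ratio rescaling). EPS8, an actin-capping and bundling protein, fell by 0.54 ± 0.057 with TGFb3 (SE, adjusted p = 2e-05) and rose by 0.91 ± 0.057 with high calcium (SE, adjusted p = 4.7e-07). LMNB1, a lamin of the nuclear envelope and like vimentin an intermediate filament protein, fell by 1.05 ± 0.059 with TGFb3 (SE, adjusted p = 2.2e-07) and by 1.54 ± 0.059 with high calcium (SE, adjusted p = 1.7e-08).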
